A study of Homo sapiens with 8 samples.

Results

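The RNA levels of 10 genes of nucleotide excision repair were followed in 2 human colorectal carcinoma lines. The members are DDB1, DDB2, XPA, XPC and ERCC1 to ERCC6, taken from the deposited count table by their symbols, and all 10 were found among its 57169 rows. All 10 also passed the low-count filter, with 21378 genes tested. The study treated HCT116, a line from a primary colorectal carcinoma, and SW620, a line from a lymph node metastasis, for 24 hours with 1 of 2 agents, each at its IC50 for the line. One agent was free 5-FU (5-fluorouracil), a pyrimidine analogue that inhibits thymidylate synthase and enters RNA and DNA. The other, AFZC, is by the series title a metal-organic framework nanodrug that carries 5-FU and an aptamer. The 4 groups are therefore HCT116 with 5-FU, HCT116 with AFZC, SW620 with 5-FU and SW620 with AFZC, and each had 2 libraries. Untreated cells were not analysed here, and AFZC is always set against cells given free 5-FU. Each line stands for itself only. Whether the pair of libraries in a group goes back to different cultures is not in the labels, so the spread behind each p-value may be technical.

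Nucleotide excision repair removes bulky lesions by cutting out a short stretch of the damaged strand. In its global branch, the DDB1-DDB2 complex and XPC find the lesion, and in its transcription-coupled branch ERCC6 (CSB) acts at a stalled RNA polymerase. Both branches then recruit TFIIH, whose helicases ERCC3 (XPB) and ERCC2 (XPD) open the DNA. XPA holds the opened complex, ERCC5 (XPG) and the ERCC1-ERCC4 (XPF) pair cut on either side, and replication proteins refill the gap. Inherited loss of most of these genes causes xeroderma pigmentosum or Cockayne syndrome, and in colorectal cancer the pathway is best known for removing platinum adducts.

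Total counts per library ran from 31991561 to 40590291, and the members together took 0.0545% to 0.102% of them. Levels are given as CPM (counts scaled to a library total of 1e+06) after TMM scaling, and fold changes and adjusted p-values are from edgeR's quasi-likelihood test over all 21378 genes. Of 12 epithelial markers, 7 to 11 were over 1 CPM in each group. Their summed level was 3503 to 4331 CPM in HCT116 with 5-FU, 4889 to 7948 CPM in HCT116 with AFZC, 15260 to 16640 CPM in SW620 with 5-FU and 5116 to 5574 CPM in SW620 with AFZC. Under AFZC, 2 of them were called higher in HCT116, KRT19 (log2 fold change 0.99, adjusted p = 0.0192) and VIL1 (group means of 0.0577 and 1.37 CPM), and CEACAM5 was at 0 there. In SW620, KRT20 was called higher and KRT8, KRT18 and KRT19 lower. Of 6 leukocyte markers only LYZ passed 1 CPM, in SW620, where the list summed to 5.78 to 8.16 CPM under 5-FU and 16.4 to 42.5 CPM under AFZC, with CD3E at 0 under both and PTPRC at 0 under AFZC. Fibroblast markers summed to 44.6 to 45.6 CPM in HCT116 with 5-FU, 53.1 to 59.7 CPM in HCT116 with AFZC and 49.3 to 81.5 CPM in SW620, and endothelial markers to 4.93 to 5.94 CPM in all groups but SW620 with AFZC, where they summed to 15.2 to 20.6 CPM with KDR and EMCN at 0. LUM, a fibroblast marker, was at 0 in HCT116 and at 20.9 to 43.2 CPM in SW620. Under AFZC, KDR was called lower in HCT116 (group means of 1.49 CPM with 5-FU and 0.122 CPM with AFZC). PDGFRB was called higher in both lines, and LYZ, VWF and CLDN5 in SW620. These shifts stand beside the values of both lines below, the DDB2 and XPC calls included, and their part in those values was not tested.

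The first question was which members differed between the nanodrug and free 5-FU in each line. In HCT116, 2 of the 10 members were higher under AFZC, DDB2 and XPC, and 0 were lower, with 9.61% of all genes tested called in either direction. Higher calls were 5.87% and lower calls 3.74% of all genes. Before adjustment, 4 members were higher and 1 lower at p under 0.05, and DESeq2 called the same counts as edgeR, 2 and 0. In SW620, DDB2 alone was higher and 0 members were lower, with 18.6% of all genes called (11.6% higher and 6.95% lower). There, 2 were higher and 0 lower before adjustment, and DESeq2 called 1 and 0. For SW620 and the comparisons further below, the share of all genes at the unadjusted threshold was not counted. The median log2 fold change of the members was 0.27 in HCT116 and 0.02 in SW620, beside medians of 0.00 and 0.03 over all genes. Both members that rose act in damage recognition, but DDB1, which acts there too, was called in neither line. Of 10 other recognition genes, 0 were called in HCT116, and 0 were higher and 1 lower in SW620. No member of lesion verification, incision or transcription-coupled repair passed the test in either line. In HCT116 the libraries of the 2 treatments did not overlap for 7 members, but the same held for 55.4% of all genes, and in SW620 for 5 members and 59.8%.

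**Figure D1:**
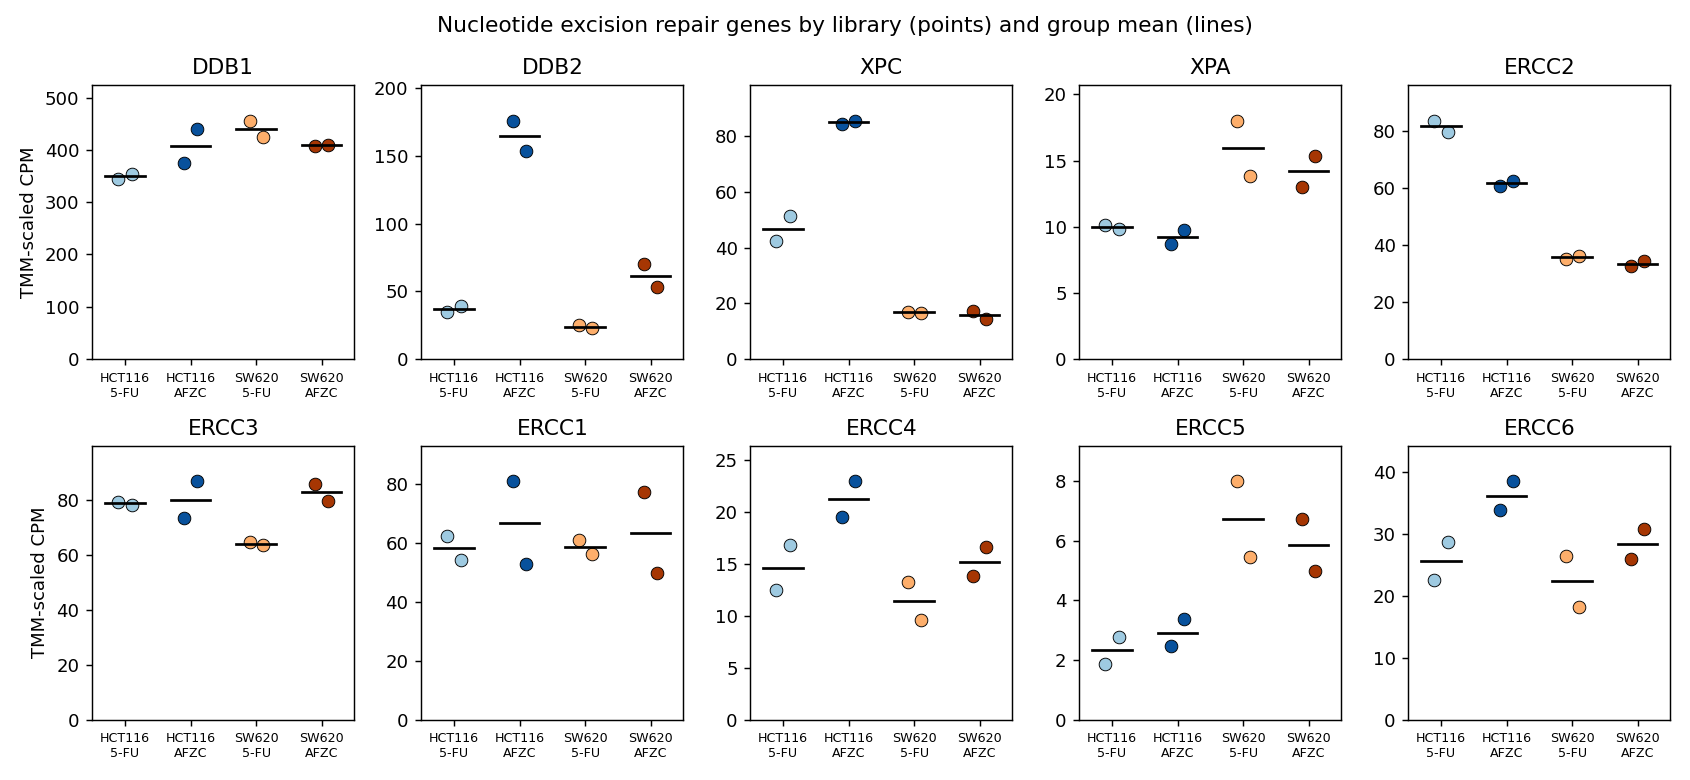
TMM-scaled CPM of the 10 members (vertical axes, each from 0) in every library (points), with the mean of the 2 libraries of each group (lines). DDB2 stands at 154 and 176 CPM in HCT116 with AFZC and at no more than 70.2 CPM elsewhere, and XPC at 84.5 and 85.5 CPM there and at no more than 51.3 CPM elsewhere.

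DDB2 encodes the subunit that binds ultraviolet photoproducts directly and brings the CUL4 ubiquitin ligase to damaged chromatin. Its gene lies on chromosome 11, 47214465 to 47239240 (GRCh38, plus strand). In HCT116 it stood at 35.1 and 39.3 CPM in the 5-FU libraries and at 176 and 154 CPM in the AFZC libraries. In SW620 it stood at 24.96 and 23.02 CPM with 5-FU and at 70.2 and 53.2 CPM with AFZC. In each line both AFZC libraries were above both 5-FU libraries, and the SW620 AFZC libraries were above those of HCT116 with 5-FU. The rise was 4.43-fold in HCT116 (log2 fold change 2.15 ± 0.173 SE, 95% interval 1.77 to 2.52, adjusted p = 2.885e-05), which ranked 12 among all genes by p. In SW620 it was 2.57-fold (log2 1.36 ± 0.171 SE, interval 0.99 to 1.73, adjusted p = 0.000217), at rank 251. In bulk RNA, a change in every cell and a change in the share of cells that carry the transcript cannot be told apart. Both calls held in 17 of 17 other settings, with log2 values of 2.04 to 2.22 in HCT116 and 1.16 to 1.74 in SW620. The difference between the lines in this rise was -0.79 (interval -1.30 to -0.27, adjusted p = 0.0545), which missed the threshold. It passed with DESeq2 (adjusted p = 0.0363), without the low-count filter (0.0302), without replicate 2 of HCT116 AFZC (0.0457) and without replicate 1 of SW620 AFZC (0.0219).

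XPC senses the distorted helix in global genome repair and keeps the complex at the lesion until TFIIH arrives. The gene is on chromosome 3, 14145147 to 14178783 (minus strand). In HCT116 it was at 42.3 and 51.3 CPM with 5-FU and at 84.5 and 85.5 CPM with AFZC. In SW620 it was at 16.9 and 16.5 CPM with 5-FU and at 17.4 and 14.2 CPM with AFZC. The treatments were apart in HCT116 and overlapped in SW620. The rise in HCT116 was 1.81-fold (log2 0.86 ± 0.166 SE, interval 0.50 to 1.22, adjusted p = 0.00717, rank 548), and the call was lost without replicate 1 of HCT116 5-FU (adjusted p = 0.126). In SW620 the log2 fold change was -0.08 (interval -0.45 to 0.29, adjusted p = 0.791), so an SW620 rise as large as the fitted one of HCT116 lay outside that interval.

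The 2 XPC effects differed in the test of the difference itself, by -0.94 on the log2 scale (SE 0.237, interval -1.46 to -0.43, adjusted p = 0.026). XPC was the only member called in that test by edgeR, as lower in SW620. None was called higher, by edgeR or DESeq2, and none had an unadjusted p under 0.05 in that direction. Over all genes this test called 9.78%, of which 5.65% were higher and 4.14% lower as shares of all tested. The XPC call rested on little margin. It was lost in 7 of 16 other settings: without replicate 1 or 2 of HCT116 5-FU (adjusted p = 0.13 and 0.0515), replicate 1 of HCT116 AFZC (0.051), replicate 1 or 2 of SW620 5-FU (0.0745 and 0.0823), replicate 2 of SW620 AFZC (0.061), and with library sizes only (0.147). The value itself ran from -1.07 to -0.58 over these settings, without a change of sign.

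The bases before 2 RefSeq starts, of XPC and of the downstream DDB2 start, are shown because theirs were the only member windows that held GGCGGGAA, and these are the 2 called genes. All 10 members matched the RefSeq promoter table (GRCh38.p14), in 14 windows of 300 bases, each from 250 bases before a start to 50 after it. Printed are the 250 bases before the start. Capitals mark GGCGGGAA, which on both printed strands reads as its reverse complement. Members and motifs were chosen with these results known.
XPC, chr3:14178602-14178851, minus strand: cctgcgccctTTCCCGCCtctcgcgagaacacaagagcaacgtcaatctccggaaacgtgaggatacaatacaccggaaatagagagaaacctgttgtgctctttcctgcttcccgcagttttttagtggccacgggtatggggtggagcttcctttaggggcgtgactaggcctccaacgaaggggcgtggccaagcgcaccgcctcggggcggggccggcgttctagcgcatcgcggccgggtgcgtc
DDB2 downstream start, chr11:47214724-47214973, plus strand: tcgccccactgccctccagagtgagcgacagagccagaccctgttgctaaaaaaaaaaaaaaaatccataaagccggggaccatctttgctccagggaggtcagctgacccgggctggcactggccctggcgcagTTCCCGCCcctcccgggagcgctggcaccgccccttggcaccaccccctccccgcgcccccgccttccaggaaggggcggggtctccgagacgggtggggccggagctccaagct

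The match begins at position -240 from the XPC start (chr3:14178834-14178841) and at position -115 from the downstream DDB2 start (chr11:47214859-47214866). The XPC row of the count table reaches to 14178783, so the printed bases from 14178602 to 14178783 lie within its span. The XPC match lies beyond it. All printed DDB2 bases lie within the span of the DDB2 row, which begins at 47214465. The downstream DDB2 window held another match past the start, at chr11:47215000-47215007. Over all 35116 windows, searched on both strands, 3.16% held GGCGGGAA. CCAAT was in windows of DDB2, ERCC1 and ERCC2 (34.6% of all windows), and for DDB2 only in the window of the upstream start. The NRF1 motif was in windows of XPA, ERCC2 and ERCC6 (5.78%). GGGCGG, which can overlap GGCGGGAA, was in 9 of the 14 windows (45% of all), and TTTGGCGC in none of them (0.652% of all). A match of letters is a description of the window and was not tested as a binding site.

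CDKN1A, which encodes the cyclin-dependent kinase inhibitor p21, and MDM2, which encodes a ubiquitin ligase, were chosen as background genes with their values known. Their log2 fold changes were 3.33 and 2.75 in HCT116 and 0.71 and 0.28 in SW620, with both genes called higher in HCT116 (adjusted p = 7.942e-06 and 0.000519). In HCT116 MDM2 stood at 91.8 and 104.9 CPM with 5-FU and at 420.5 and 898.5 CPM with AFZC, a wide spread between the AFZC libraries. CDKN1A stood at 189.1 and 175.2 CPM with 5-FU and at 2030 and 1633 CPM with AFZC there. In SW620 CDKN1A was called higher (adjusted p = 0.0302) and MDM2 was not called (adjusted p = 0.544).

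DDB1, the adaptor that ties DDB2 to the CUL4 ligase, is on chromosome 11, 61299451 to 61342596. It stood at 345 and 354 CPM in HCT116 with 5-FU and at 375 and 440 CPM with AFZC. In SW620 it stood at 456 and 425 CPM with 5-FU and at 407 and 410 CPM with AFZC. The log2 fold changes, 0.22 in HCT116 (interval -0.12 to 0.56, adjusted p = 0.432) and -0.11 in SW620 (interval -0.45 to 0.23, adjusted p = 0.685), did not pass the test, and both intervals lay below the DDB2 rise of the same line.

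Because DDB2 rose and DDB1 was not called, their proportion within a library was read per exon base. Only exon bases that no other row shares were used for lengths, a choice made after the sharing was seen, as were the gene pairs, and no test was run. For each DDB1, DDB2 stood at 0.279 and 0.304 in HCT116 with 5-FU and at 1.29 and 0.957 with AFZC. In SW620 the ratio was 0.15 and 0.148 with 5-FU and 0.472 and 0.355 with AFZC. The ratio was below 1 in 7 of 8 libraries and above 1 in replicate 1 of HCT116 AFZC. The lengths are all unshared exon bases, 13429 for DDB1 and 4897 for DDB2, and not those of the transcripts expressed. A ratio near 1 therefore does not say which gene had more transcripts. XPC to DDB2 moved the other way, from 1.77 and 1.91 to 0.703 and 0.817 in HCT116 and from 0.995 and 1.05 to 0.363 and 0.393 in SW620. In both lines every AFZC library had less XPC for each DDB2 than either 5-FU library.

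**Figure D2:**
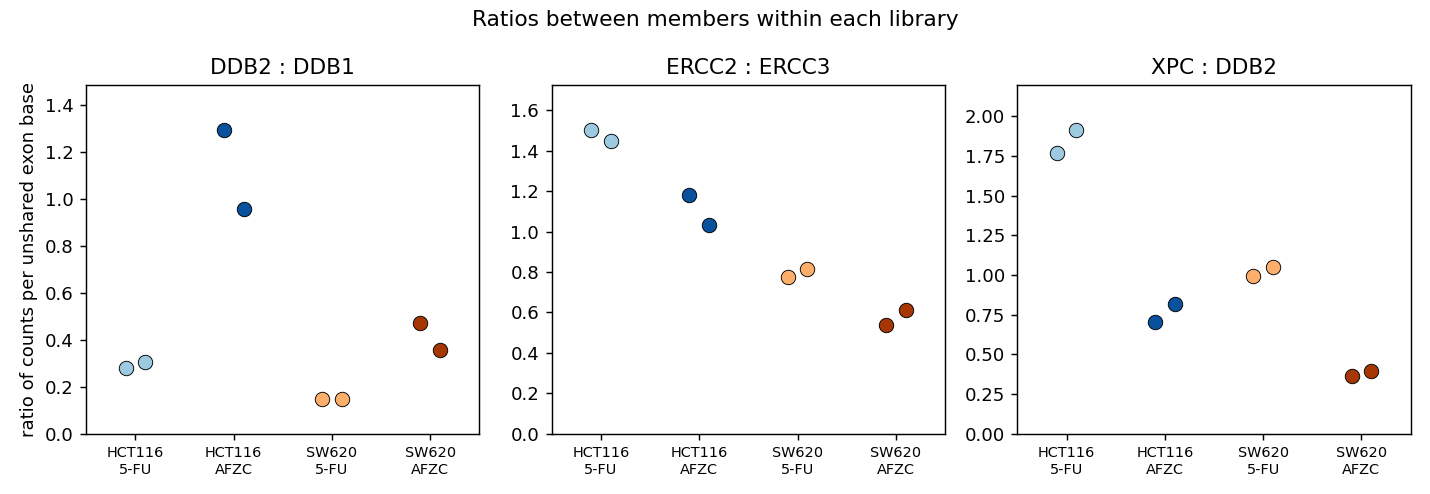
Ratios of counts per unshared exon base (vertical axes, from 0) between 3 pairs of members in each of the 8 libraries (points). DDB2 to DDB1 is 0.148 to 0.304 in the 4 libraries with 5-FU and 0.355 to 1.29 in the 4 with AFZC, ERCC2 to ERCC3 is 1.03 to 1.5 in HCT116 and 0.539 to 0.816 in SW620, and XPC to DDB2 is lower with AFZC than with 5-FU in each line.

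Among the TFIIH helicases, ERCC2, which unwinds the damaged strand and checks it for the lesion, is on chromosome 19, 45349837 to 45370918. It was at 83.7 and 79.7 CPM in HCT116 with 5-FU and at 60.7 and 62.7 CPM with AFZC. In SW620 it was at 35.2 and 36.3 CPM with 5-FU and at 32.5 and 34.3 CPM with AFZC. In HCT116 both AFZC libraries were below both 5-FU libraries, but the log2 fold change of -0.41 (interval -0.71 to -0.10) had an adjusted p of 0.0913. It was the member with the only unadjusted lower p under 0.05 there, 0.0132. In SW620 the value was -0.10 (adjusted p = 0.684), and the difference between the lines was 0.31 (adjusted p = 0.375). That difference was 0.66 with library sizes only (adjusted p = 0.0475).

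ERCC3, the TFIIH translocase that starts the opening of the DNA, is on chromosome 2, 127257290 to 127294176. It was at 79.2 and 78.3 CPM in HCT116 with 5-FU, 73.3 and 86.7 CPM with AFZC, 64.5 and 63.4 CPM in SW620 with 5-FU and 85.9 and 79.7 CPM with AFZC. In SW620 the treatments did not overlap, with a log2 fold change of 0.37 (interval 0.06 to 0.69) and an adjusted p of 0.0927. In HCT116 the value was 0.02 (adjusted p = 0.965). The SW620 value was 0.75 with library sizes only (adjusted p = 0.00378), and the difference between the lines 0.70 (adjusted p = 0.048). That setting drops the TMM factors, which were 0.816 and 0.867 in the SW620 5-FU libraries and 1.07 to 1.11 with AFZC, and it raises the SW620 value of the median gene by 0.38. ERCC2 to ERCC3 per unshared base was 1.5 and 1.45, then 1.18 and 1.03, in HCT116 and 0.777 and 0.816, then 0.539 and 0.612, in SW620, with 5-FU and then AFZC. In each line the ratio was lower in both AFZC libraries.

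XPA, a zinc finger scaffold that positions the nucleases, is on chromosome 9, 97674909 to 97697357. It was at 10.1 and 9.80 CPM in HCT116 with 5-FU, 8.72 and 9.74 CPM with AFZC, 18.0 and 13.8 CPM in SW620 with 5-FU and 12.98 and 15.37 CPM with AFZC. The treatments were close in HCT116 and overlapped in SW620. The log2 fold changes were -0.11 (interval -0.61 to 0.39, adjusted p = 0.836) and -0.17 (interval -0.66 to 0.33, adjusted p = 0.667).

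**Figure D3:**
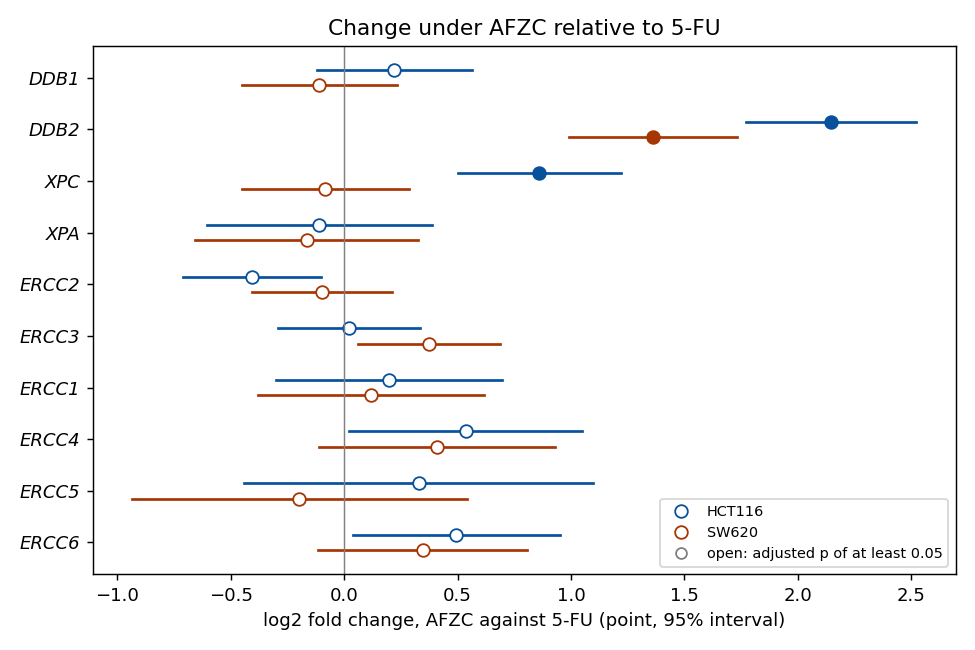
Log2 fold change under AFZC relative to 5-FU (horizontal axis; points, with 95% intervals as lines) for the 10 members in HCT116 (blue) and SW620 (brown), filled where the adjusted p was under 0.05. DDB2 is filled in both lines at 2.15 and 1.36 and XPC in HCT116 at 0.86, while the other 17 points are open.

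Of the incision genes, ERCC1, the non-catalytic partner that loads the ERCC4 nuclease, is on chromosome 19, 45407333 to 45478828. It was at 62.5 and 54.1 CPM in HCT116 with 5-FU and at 80.9 and 52.9 CPM with AFZC. In SW620 it was at 60.9 and 56.3 CPM with 5-FU and at 77.3 and 49.7 CPM with AFZC. In both lines replicate 1 of AFZC was the highest library and replicate 2 of AFZC the lowest, so the AFZC pair enclosed the 5-FU pair. The log2 fold changes were 0.20 (interval -0.30 to 0.70, adjusted p = 0.659) and 0.12 (interval -0.38 to 0.62, adjusted p = 0.778). Without replicate 1 of AFZC they turned to -0.15 in HCT116 and -0.23 in SW620. ERCC4, the nuclease that cuts on the 5′ side, is on chromosome 16, 13920157 to 13952345. It was at 12.5 and 16.8 CPM in HCT116 with 5-FU, 19.5 and 22.9 CPM with AFZC, 13.3 and 9.64 CPM in SW620 with 5-FU and 13.9 and 16.6 CPM with AFZC. Both AFZC libraries were above both 5-FU libraries in each line, with log2 fold changes of 0.54 (interval 0.02 to 1.05, adjusted p = 0.183) and 0.41 (interval -0.11 to 0.93, adjusted p = 0.262), neither past the threshold. With library sizes only the SW620 value was 0.78 (adjusted p = 0.0386). ERCC1 to ERCC4 per unshared base spread from 3.64 to 9.22 over the 8 libraries. It was 7.91 and 5.09 in HCT116 with 5-FU, 6.55 and 3.64 with AFZC, 7.23 and 9.22 in SW620 with 5-FU and 8.81 and 4.73 with AFZC, so the treatments overlapped in each line.

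ERCC5, the nuclease that cuts on the 3′ side, is the member with the fewest counts, 1210 over all 8 libraries. Its row covers chromosome 13, 102807146 to 102876001. It was at 1.87 and 2.78 CPM in HCT116 with 5-FU, 2.46 and 3.38 CPM with AFZC, 7.99 and 5.47 CPM in SW620 with 5-FU and 6.73 and 4.99 CPM with AFZC. The treatments overlapped in both lines, with log2 fold changes of 0.33 (interval -0.44 to 1.10, adjusted p = 0.632) and -0.20 (interval -0.93 to 0.54, adjusted p = 0.742). These counts come from a small part of the gene. In the deposited table, rows whose every exon base is shared with another row had 0 counts in 1796 of 1796 cases, against 33.5% of the 55373 other rows, so reads in shared exons were not counted. ERCC5 shares 5213 of its 8242 exon bases with the BIVM-ERCC5 readthrough row, which had 0 counts, and only 88 of the 3561 coding bases of its principal transcript (2.47%) could be counted.

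The other members kept more of their sequence. DDB2, XPA, ERCC3 and ERCC6 share no exon base, DDB1 keeps 96.3% and ERCC2 91.7%. ERCC4 keeps 74.3%, ERCC1 71.4% and XPC 69.6%, where XPC shares bases with LSM3 and with the antisense genes AC093495.1 and AC090004.1, ERCC1 with CD3EAP and ERCC4 with AC010401.1. DDB1 shares 521 bases with TKFC and ERCC2 535 with KLC3, both on the opposite strand. Of coding bases, XPC keeps 79.5%, ERCC4 66.9% and ERCC1 94.3%. The libraries did not keep strand, so reads from these neighbours that fall on unshared exons of these members cannot be told apart. LSM3, an RNA processing factor on the opposite strand from XPC, had log2 fold changes of 0.65 in HCT116 (adjusted p = 0.0285) and 1.14 in SW620 (adjusted p = 0.000732). The part of reads from these neighbours in the XPC counts was not tested. AC093495.1 was at 1.99 to 4.91 CPM in HCT116 and 0.642 to 1.52 CPM in SW620, with log2 fold changes of 0.91 (adjusted p = 0.16) and -0.70 (adjusted p = 0.277). AC090004.1 was at 0.689 to 1.41 CPM, with log2 fold changes of -0.04 and 0.45 (adjusted p = 0.99 and 0.541). TKFC, a kinase of dihydroxyacetone and glyceraldehyde, was called lower under AFZC in both lines. Its log2 fold changes were -0.74 in HCT116 (adjusted p = 0.0356) and -0.86 in SW620 (adjusted p = 0.0111). Its part in the DDB1 counts was not tested. KLC3, a kinesin light chain, was not called under AFZC (0.42 and 0.53, adjusted p = 0.339 and 0.173). Between the lines KLC3 was lower in SW620, as ERCC2 was, by log2 differences of -1.07 under 5-FU and -0.96 under AFZC (adjusted p = 0.0034 and 0.0072).

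**Figure D4:**
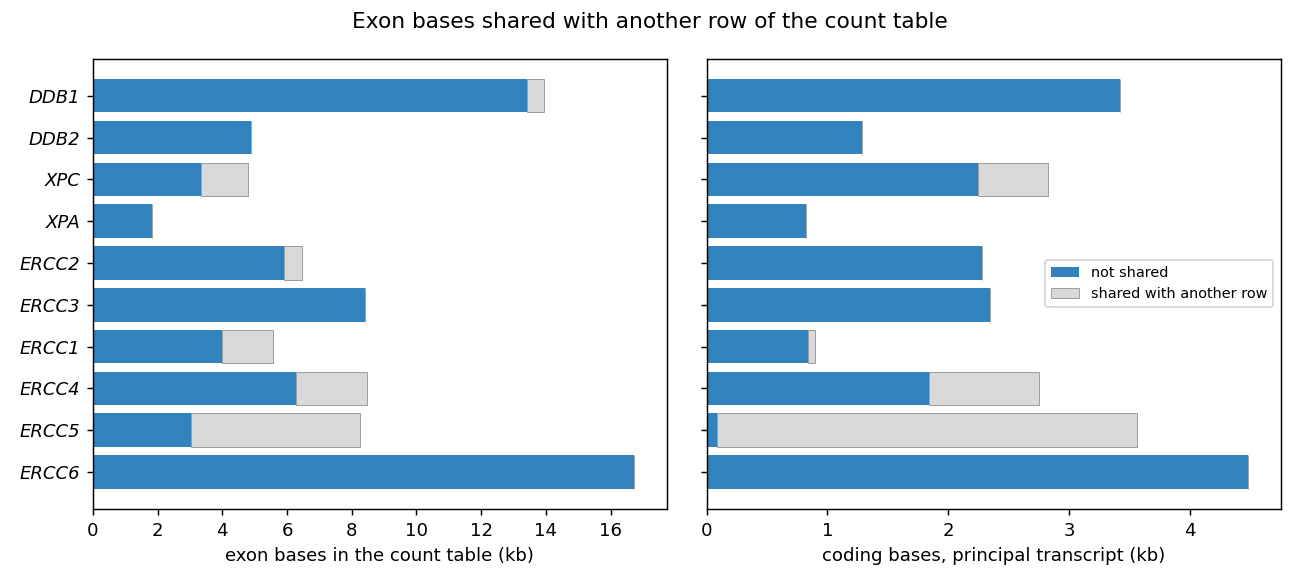
Exon bases of each member in the count table (left, kb) and coding bases of its principal transcript (right, kb), split into bases not shared with another row (blue) and shared bases (grey). ERCC5 keeps 3029 of 8242 exon bases and 88 of 3561 coding bases, while DDB2, XPA, ERCC3 and ERCC6 keep all of theirs.

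ERCC6, the ATPase that remodels chromatin at stalled RNA polymerase in the transcription-coupled branch, is on chromosome 10, 49455368 to 49539538. It was at 22.6 and 28.7 CPM in HCT116 with 5-FU, 33.8 and 38.4 CPM with AFZC, 26.4 and 18.2 CPM in SW620 with 5-FU and 25.9 and 30.7 CPM with AFZC. The treatments were apart in HCT116 and overlapped in SW620. The log2 fold changes were 0.49 (interval 0.04 to 0.95, adjusted p = 0.165) and 0.35 (interval -0.11 to 0.80, adjusted p = 0.286). Scaled by library sizes only, the SW620 value was 0.71 (adjusted p = 0.0345). ERCC6 to XPC per unshared base was 0.0799 to 0.111 in HCT116 and 0.22 to 0.431 in SW620.

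Per unshared kilobase, the order of the members was led by DDB1 in 3 groups, at 26.0, 32.8 and 30.4 CPM per kb in HCT116 with 5-FU, SW620 with 5-FU and SW620 with AFZC. In HCT116 with AFZC, DDB2 (33.7 ± 3.27 SD, n = 2) and DDB1 (30.3 ± 3.45) came first and did not differ beyond their spread. DDB2 stood 6th with 5-FU and 1st with AFZC in HCT116, and 7th and 3rd in SW620. XPC stood 3rd under both treatments in HCT116 (14.02 and 25.45 CPM per kb) and 6th and 7th in SW620 (5.01 and 4.73). In HCT116 with 5-FU, ERCC1, XPC and ERCC2 (14.64, 14.02 and 13.82) lay within their spread of each other, and so did XPC and DDB2 in SW620 with 5-FU (5.01 and 4.90). ERCC4, ERCC5 and ERCC6 took the last 3 places in all 4 groups, at 0.768 to 3.38 CPM per kb. These lengths take in every exon base that no other row shares, 16737 for ERCC6 and 1833 for XPA. ERCC5 was read over 3029 such bases, and only 88 coding bases of its principal transcript are unshared. The order between genes therefore depends on the annotation and is not an order of transcript numbers. As a share of the 10 members' summed level, DDB2 went from 7.6% and 8.29% to 25.9% and 23% in HCT116 and from 5.72% and 5.8% to 14.6% and 12.3% in SW620.

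The next question was how the lines differed under each treatment. These comparisons share their libraries with those above. Under 5-FU, SW620 had 3 members lower than HCT116 (DDB2, XPC and ERCC2) and 2 higher (XPA and ERCC5), with 54.8% of all genes called (28.2% lower and 26.5% higher). Under AFZC the same 3 were lower and the same 2 higher, with 49.3% of all genes called (24.2% and 25.1%). With 5 of 10 members called beside about that share of all genes, the count itself sets the members apart in neither treatment. The median log2 difference of the members was -0.25 and -0.21, beside -0.04 and -0.01 for all genes. Libraries of the lines did not overlap for 7 members under each treatment, as for 80% and 74.4% of all genes.

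Of the members lower in SW620, XPC differed most, by a log2 difference of -1.48 ± 0.171 under 5-FU (adjusted p = 1.017e-05) and -2.43 ± 0.175 under AFZC (adjusted p = 2.005e-07). ERCC2 was lower in SW620 by log2 differences of -1.19 (adjusted p = 1.534e-05) and -0.89 (adjusted p = 0.000223). Both genes were called in 17 of 17 other settings under each treatment. DDB2 was lower by a log2 difference of -0.63 under 5-FU (adjusted p = 0.00666) and -1.42 under AFZC (adjusted p = 1.72e-05). The first of these missed the threshold without replicate 2 of SW620 5-FU (adjusted p = 0.0624).

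XPA was higher in SW620 by 0.67 under 5-FU (adjusted p = 0.024) and 0.62 under AFZC (adjusted p = 0.0389), and neither call was firm. The 5-FU call was lost without replicate 1 or 2 of HCT116 5-FU (adjusted p = 0.0945 and 0.124), without replicate 1 of SW620 5-FU (0.213) and with library sizes only (0.194). The AFZC call was lost without replicate 1 or 2 of HCT116 AFZC (adjusted p = 0.161 and 0.0715), replicate 2 of SW620 AFZC (0.155), replicate 1 or 2 of HCT116 5-FU (0.063 and 0.0615), with DESeq2 (0.0505), with the replicate number as a block (0.0534), and in a fit of the 2 groups alone (0.0882). ERCC5 was higher by 1.53 ± 0.355 (adjusted p = 0.00275) and 1.003 ± 0.349 (adjusted p = 0.0297). Its AFZC call was lost without replicate 1 of HCT116 AFZC (0.165), without replicate 1 of SW620 AFZC (0.136) and in a fit of the 2 groups alone (0.0549). BIVM, the gene just upstream whose readthrough takes in ERCC5, stood at 10.99 to 11.45 CPM in HCT116 and 28.9 to 34.7 CPM in SW620, a log2 difference of 1.505 under 5-FU and 1.62 under AFZC. The part of BIVM transcription in the ERCC5 counts was not tested.

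The other 5 members did not pass the test between the lines. DDB1 differed by 0.33 (adjusted p = 0.0906) and 0.00 (adjusted p = 0.985), and ERCC3 by -0.30 (adjusted p = 0.0969) and 0.05 (adjusted p = 0.802), under 5-FU and AFZC. The ERCC3 difference under 5-FU passed with upper-quartile factors (adjusted p = 0.0418), with library sizes only (0.00486) and in a fit of the 2 groups alone (0.0413). ERCC1 lay at 0.01 and -0.08, ERCC4 at -0.35 and -0.48 and ERCC6 at -0.20 and -0.35, with adjusted p-values from 0.112 to 0.986. With library sizes only ERCC4 was at -0.65 under 5-FU (adjusted p = 0.0432).

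The other 48 genes of the pathway were compared in 4 lists. In HCT116, 1 of 48 was higher, PCNA, the sliding clamp of DNA synthesis, and 0 were lower, beside 5.87% of all genes higher and 3.74% lower. It stood at 178 and 148 CPM with 5-FU and at 426 and 344 CPM with AFZC, a log2 fold change of 1.24 ± 0.166 (adjusted p = 0.000884). Before adjustment 2 of the 48 were higher and 2 lower in HCT116, and DESeq2 called 1 and 0. GTF2H4, a TFIIH core subunit, had the lowest value of the 48, -2.33, on 21 and 23 counts with 5-FU and 6 and 3 with AFZC (adjusted p = 0.0929). Only 495 of its 2353 exon bases are unshared.

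In SW620, 17 of the 48 were higher and 1 was lower, beside 11.6% and 6.95% of all genes, and 16 of the 17 belonged to gap filling and ligation. That list had 16 of 21 members higher and 0 lower, with a median log2 fold change of 0.93 beside 0.03 for all genes. Before adjustment 1 was lower at p under 0.05, and DESeq2 called 16 higher and 1 lower. POLE2, a subunit of DNA polymerase epsilon, rose most, from 4.03 and 3.69 to 17.3 and 20.6 CPM (log2 2.30 ± 0.246, adjusted p = 6.603e-05). PCNA rose from 54.3 and 50.7 to 217 and 211 CPM (log2 2.03 ± 0.171, adjusted p = 1.062e-05). Much of this list is replication proteins, and whether their rise belongs to repair or to replication was not tested. The number higher in that list was 14 to 16 when single libraries were left out and 16 to 17 in other settings. Of 8 TFIIH genes, GTF2H5, the small subunit that stabilises the complex, was called higher (log2 0.70 ± 0.21, adjusted p = 0.0348). That call was lost in 6 settings, up to an adjusted p of 0.311 without replicate 2 of SW620 5-FU, where the value was 0.48. The others were without replicate 1 or 2 of HCT116 5-FU (0.0581 and 0.0543), replicate 1 or 2 of SW620 AFZC (0.103 and 0.053) and a fit of SW620 alone (0.0547). Of 10 recognition genes USP7, a deubiquitinase that acts on repair factors, was lower (log2 -0.59 ± 0.146, adjusted p = 0.0149), a call lost without replicate 1 or 2 of SW620 5-FU (adjusted p = 0.0744 and 0.116), replicate 1 of SW620 AFZC (0.0922), and with library sizes only (-0.21, adjusted p = 0.306). None of 9 transcription-coupled genes was called in either line by edgeR or DESeq2, and before adjustment 1 was lower in SW620. The 1 lower call of the 48 in SW620 ran from 0 to 5 over single libraries left out, with 5 without replicate 2 of SW620 AFZC, and it was 3 with the replicate block, 4 without the low-count filter and 2 with DESeq2.

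**Figure D5:**
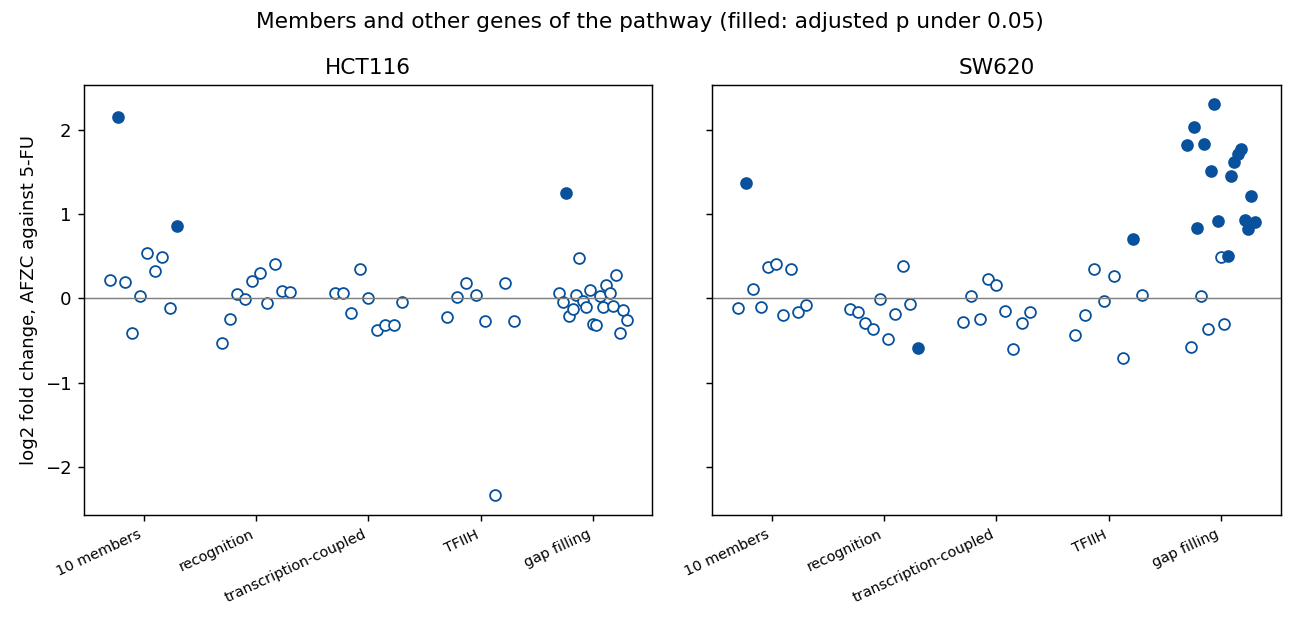
Log2 fold change under AFZC relative to 5-FU (vertical axis) for the 10 members and the 4 lists of other pathway genes (horizontal axis), with HCT116 left and SW620 right, 1 point a gene, filled where the adjusted p was under 0.05. In HCT116 the filled points are DDB2 and XPC among the members and PCNA in gap filling, and in SW620 16 of 21 gap-filling genes are filled beside DDB2, GTF2H5 and USP7.

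The difference between the lines in the response to AFZC was called for 13 of the 21 gap-filling genes, all higher in SW620, and for 0 of the other 27 genes of the lists, beside 5.65% of all genes higher and 4.14% lower. Before adjustment 17 of the 48 were higher and 3 lower in that test, where all genes at that threshold were not counted. DESeq2 called 15 and 2. POLE2 (2.40 ± 0.334, adjusted p = 0.00104) and RFC5, a clamp loader subunit (1.86 ± 0.24, adjusted p = 0.000677), differed most. Over single libraries left out, 10 to 13 gap-filling genes were called higher. Of the 10 members, 8 had a difference below 0 and 2 above, while 51.9% of all genes had a difference above 0. Only XPC of the 8 was called. In 16 other settings DDB1 turned sign in 1, ERCC6 in 3, ERCC1 in 4 and XPA and ERCC4 in 5 each. The median of the members was -0.14, beside 1.16 for gap filling and 0.04 for all genes.

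Between the lines, gap-filling genes were lower in SW620 under 5-FU, 13 of 21 lower and 3 higher, and higher under AFZC, 12 higher and 2 lower (1 lower without replicate 2 of HCT116 AFZC or replicate 1 of SW620 AFZC). All genes called were 26.5% higher and 28.2% lower under 5-FU, and 25.1% and 24.2% under AFZC. These share libraries with the treatment comparisons. Under 5-FU, LIG1, the ligase that seals the last nick, differed by -2.15 (adjusted p = 2.356e-06) and POLD4, the small subunit of polymerase delta, by 2.67 (adjusted p = 5.423e-06). Under AFZC the widest were POLD3 and POLE4, subunits of polymerases delta and epsilon, at 2.17 and 2.02 (adjusted p = 6.539e-07 and 3.49e-05). Among recognition genes CETN2, the centrin bound to XPC, was lower in SW620 as XPC was (-1.66 and -1.26, adjusted p = 0.000291 and 0.00254), and UBE2A, a ubiquitin-conjugating enzyme, was higher (1.03 and 1.0001, adjusted p = 0.000123 and 0.000187). In that list of 10, 6 were higher and 1 lower under 5-FU, and 2 and 1 under AFZC. The 6 fell to 3 without replicate 2 of HCT116 5-FU, without replicate 1 of SW620 5-FU, and with library sizes only, and the 1 lower was 2 without any 1 of the 4 AFZC libraries. The 2 under AFZC fell to 1 without replicate 1 of HCT116 AFZC or replicate 2 of SW620 AFZC and in a fit of the 2 groups alone, and came to 4 with library sizes only, while the 1 lower was 2 without replicate 2 of SW620 AFZC. In the transcription-coupled list 1 was higher and 2 lower under each treatment, with TCEA1, an elongation factor, at 1.39 and 1.09 and XAB2, an XPA-binding splicing factor, at -1.07 and -1.19. The 2 lower fell to 1 without replicate 2 of HCT116 5-FU or of SW620 5-FU, and under AFZC without replicate 2 of HCT116 AFZC, and the 1 higher under AFZC was 2 without replicate 1 of SW620 AFZC. Of 8 TFIIH genes, 2 were higher and 3 lower under 5-FU, and 2 and 2 under AFZC, near the share of all genes called (54.8% and 49.3%). Under 5-FU the 2 higher fell to 1 without replicate 2 of HCT116 5-FU, without replicate 1 of SW620 5-FU and with library sizes only. Under AFZC the 2 higher fell to 1 without replicate 1 of HCT116 AFZC or replicate 2 of SW620 AFZC, and the 2 lower fell to 1 without either library of HCT116 5-FU or of HCT116 AFZC, without replicate 1 of SW620 AFZC, with library sizes only and in a fit of the 2 groups alone. Of the called TFIIH genes, the core subunits GTF2H2 and GTF2H3 differed most under 5-FU (-1.16 and -1.15). Under AFZC these were GTF2H2 and MNAT1, the assembly factor of the TFIIH kinase (-1.24 and 0.98). The lowest value among all 8 under 5-FU, called or not, was -1.29.

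Profiles over all 8 libraries were also compared, by the root mean square difference of log2 CPM centred on each gene's mean, among 12219 genes. The closest to DDB2 were PGF (0.25), a growth factor, POLH (0.26), the translesion polymerase eta, and E2F7 (0.30), a repressor of the E2F family. POLH went from 21.5 and 22.5 to 98.1 and 77.3 CPM in HCT116 and from 9.43 and 11.1 to 25.1 and 23.9 CPM in SW620. Like DDB2, all 3 were called higher in both lines, with log2 fold changes of 2.37, 1.99 and 1.77 in HCT116 and 1.41, 1.25 and 1.29 in SW620. The closest to XPC were NTPCR (0.17), a nucleoside triphosphatase, PRR14L (0.18) and DIRC2 (0.18). NTPCR went from 36.4 and 40.2 to 76.3 and 80.1 CPM in HCT116 and from 16.8 and 18.9 to 15.6 and 15.6 CPM in SW620. Of these only NTPCR was called in HCT116 (1.03, adjusted p = 0.00186) and in the difference between the lines (-1.23, adjusted p = 0.00503). PRR14L and DIRC2 missed the threshold in HCT116 (adjusted p = 0.0811 and 0.0669). The profiles were matched on the same libraries, so these values describe the likeness and do not test it.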

How the data were processed

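RNA from 8 libraries was measured by sequencing of polyadenylated RNA, without strand, per the labels' protocols. A single deposited file holds the authors' raw counts, 1 row per symbol and 1 column per library, laid out as featureCounts writes them. Per the submitters' processing notes the build was GRCh38 and the tools were STAR, HISAT2, featureCounts, edgeR, DESeq2, cutadapt, Trimmomatic and FastQC. Which aligner was used, and how mates and multiply aligned reads were treated, is not given in the sources used here. In every library more genes had 2 counts than 1 count (by 1.68 to 1.84 times), so both mates of a fragment may have been counted.

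Counts were analysed with edgeR 4.0.16 and limma 3.58.1 in R 4.3.3, with data.table (version 1.17.8) for reading. FilterByExpr (minimum count 10) kept 21378 of 57169 genes. TMM scaling and a robust quasi-likelihood fit of 4 group means left 4 residual degrees of freedom, with a biological coefficient of variation of 19.9%. For each gene the fit takes 1 spread for all 4 groups. The chi-square between the 2 libraries of a group, per degree of freedom, was 23.55 in HCT116 and 20.91 in SW620 with 5-FU. With AFZC it was 51.47 and 47.79, so the AFZC pairs were the noisier ones. Two-sided p-values were adjusted over all genes tested (Benjamini-Hochberg, threshold 0.05). The SE was obtained by dividing a log2 fold change by the root of F, and 95% intervals use the fit's degrees of freedom. The steps were also run on simulated counts, drawn with the spread fitted to these data. That run therefore cannot show whether the fitted spread is right. Exon sharing was computed from the exon positions of the deposited rows. Coding bases were those of principal transcripts in GENCODE 29, the annotation with the positions of these rows.

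Members, pathway lists, marker lists and tests were chosen with earlier results of these data known. The text names all 10 members, the 2 called genes with the largest change in each list and comparison, the 3 closest profiles of DDB2 and XPC (among genes with a mean log2 CPM of at least 1 and no clone or antisense name), genes that share exons with a member, CDKN1A and MDM2. Another gene of this rule is not reported here. GTF2H4 was named after its value was seen. Alternatives were 3 other scalings, 2 other filters, a fit without robust dispersion, DESeq2 1.42.0, fits of the compared groups alone, a replicate block, and each library left out.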

Additional observations from a re-analysis of the deposited data

Results flagged for a closer look

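The response of XPC to AFZC differed between the lines, by -0.94 on the log2 scale (SW620 minus HCT116, edgeR adjusted p = 0.026). It was singled out because the test of this difference passed the threshold. XPC went from 42.3 and 51.3 to 84.5 and 85.5 CPM in HCT116 and from 16.9 and 16.5 to 17.4 and 14.2 CPM in SW620. Its adjusted p ran from 0.00876 to 0.147 over 16 other settings, 7 of which ended the call, 6 of them by leaving out a single library.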

How the results depend on the processing

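DDB2 was called higher under AFZC in both lines in all alternatives run, and XPC in HCT116 in 16 of 17. With library sizes only, which moves the median gene by 0.38 in SW620, 0.35 in the difference between the lines and -0.30 between the lines under 5-FU, members called higher were 4 in SW620 (DDB2, ERCC3, ERCC4 and ERCC6) and 2 in the difference (ERCC2 and ERCC3), with 0 lower there. Between the lines under 5-FU they were 1 higher and 5 lower. That setting called 26.1% of all genes in SW620, 13.5% in the difference and 56% between the lines under 5-FU. The main fit called 18.6%, 9.78% and 54.8%. In the difference between the lines, 2 members were lower without the low-count filter and with DESeq2 (8.5% and 15.3% of all genes called). Between the lines under AFZC, 1 was higher with DESeq2 and 0 in a fit of the compared groups alone. All genes called there were 25.4% and 45.2%.

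With the replicate number as a block, 1 member was higher between the lines under AFZC (ERCC5, with XPA lost at 0.62, adjusted p = 0.0534). That setting called 47.7% of all genes in this comparison, and no other member count changed. Same-numbered libraries correlated at 0.072 (HCT116) and -0.061 (SW620) between treatments and at -0.002 (5-FU) and 0.154 (AFZC) between lines over 12949 genes, and the labels give no pairing.

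Over single libraries left out, genes called ran from 305 to 2723 in HCT116, 1583 to 4437 in SW620 and 757 to 2460 in the difference between the lines. Members higher were 1 to 2 in HCT116, 1 to 2 between the lines under 5-FU and 0 to 2 under AFZC, and members lower in the difference were 0 to 2. Called genes in HCT116 were 305, 625 and 778 without replicate 1 or 2 of HCT116 5-FU or replicate 1 of HCT116 AFZC, and in SW620 2327, 1583 and 2474 without replicate 1 or 2 of SW620 5-FU or replicate 1 of SW620 AFZC. In the difference they were 757, 996 and 1017 without replicate 1 or 2 of HCT116 5-FU or replicate 2 of SW620 5-FU.

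Signs turned only where neither value was called. With library sizes only, SW620 values were 0.27 for DDB1, 0.20 for XPA, 0.30 for XPC, 0.28 for ERCC2 and 0.17 for ERCC5, those of the difference between the lines 0.0226 for DDB1, 0.29 for XPA, 0.28 for ERCC1, 0.22 for ERCC4 and 0.20 for ERCC6, and that of ERCC1 between the lines under 5-FU -0.29. That last value was -0.0804 with upper-quartile factors, -0.0057 without the low-count filter, -0.0265 with a mean of at least 1 CPM and -0.0098 with the compared groups alone. ERCC3 in HCT116 was -0.0376 with upper-quartile factors and -3e-04 without the low-count filter, XPA in the difference 0.014 with upper-quartile factors, and DDB1 between the lines under AFZC -0.0122 with these, -0.011 with a mean of at least 1 CPM and -0.0076 with the compared groups alone.

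Over single libraries left out, values that turned sign ran as follows. In HCT116 ERCC1 ran from -0.15 to 0.45 and ERCC3 from -0.13 to 0.13. In SW620 XPA ran from -0.35 to 0.0403, XPC from -0.23 to 0.0541, ERCC1 from -0.23 to 0.40 and ERCC5 from -0.45 to 0.10. In the difference XPA ran from -0.24 to 0.15, ERCC1 from -0.41 to 0.27, ERCC4 from -0.34 to 0.13 and ERCC6 from -0.39 to 0.15. Between the lines under 5-FU ERCC1 ran from -0.11 to 0.11 and ERCC6 from -0.49 to 0.046, and under AFZC DDB1 from -0.11 to 0.13, ERCC1 from -0.42 to 0.26 and ERCC3 from -0.0717 to 0.18. The causes were not tested. ERCC5, with 1210 counts in all, sets the widest intervals.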
